A study of Canis lupus familiaris with 33 samples.

Results

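Diffuse large B-cell lymphoma (DLBCL) of the dog is a tumour of mature B cells, and its lymph nodes differ in how many cells are dividing. To compare highly with weakly proliferating tumours, the 23 DLBCL arrays of a series of 33 Affymetrix Canine Genome 2.0 arrays were ranked by a proliferation index, the mean log2 level of CDK1, CCNB2, TOP2A, TTK and CENPF. The groups were chosen by these measured levels alone. The 7 tumours of highest index formed the high group and the 7 of lowest index the low group, so that 14 of the 33 arrays were compared, and the other 9 tumours were in the middle. RNA came from lymph node biopsies, and the other 10 arrays were of nodes of healthy dogs. The values are log2 expression levels, on which a difference of 1 is a doubling.

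The high group held 6 treatment naïve tumours and 1 tumour that had relapsed after chemotherapy (sample 4, 672 days after its last treatment). The low group held 4 treatment naïve and 3 relapsed tumours (samples 9, 12 and 18, at 32, 152 and 76 days). The dogs had 6 breed labels in the high group and 7 in the low group, and the 14 arrays came from 14 different dogs. Ages were 2.7 to 12 years in the high group and 4.7 to 10.8 years in the low group. The medication label was rimadyl, an anti-inflammatory drug, for 2 dogs of the high group and for no dog of the low group, and it was not available for 3 and 2 dogs. A biopsy holds tumour cells together with T cells, macrophages and stroma. In such tissue a larger share of dividing cells and more RNA per dividing cell cannot be told apart.

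A dividing cell copies its DNA in S phase and separates the copies in mitosis. Cyclins and the cyclin-dependent kinases that they switch on drive these steps, and transcription factors such as the E2F proteins, MYBL2 and FOXM1 turn on the genes needed in S phase, G2 and mitosis. Many of the genes of mitosis are transcribed mainly in G2 and M, and their RNA is low in resting cells. The index genes belong to this late group: CDK1 and CCNB2 form a kinase that starts mitosis, TOP2A untangles DNA, TTK acts in the spindle checkpoint and CENPF binds the kinetochore. These 5 genes chose the groups and are left out of every result below.

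The index was 11.28 ± 0.19 (SD, n = 7) in the high group, 10.66 ± 0.15 (SD, n = 9) in the middle tumours and 10.02 ± 0.34 (SD, n = 7) in the low group. Sample 4, at 11.60, was the highest tumour and sample 18, at 9.45, the lowest. At the edges of the groups, the tumours of ranks 7 and 8 had 11.03 and 10.88, and those of ranks 16 and 17 had 10.43 and 10.36. Between neighbouring ranks the index fell by at most 0.19, except for a step of 0.43 inside the low group, between samples 12 and 9. Healthy nodes ranged from 7.55 to 10.08, and the highest of them lay within the range of the low group. These values describe the choice of the groups.

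**Figure D1:**
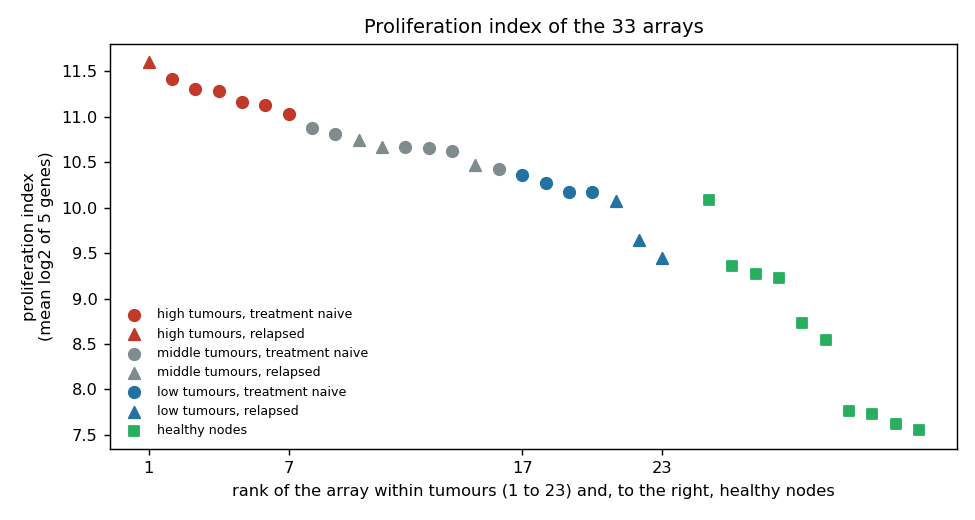
Proliferation index (mean log2 level of 5 genes, vertical axis) of each array, with the 23 tumours in order of rank from left to right and the 10 healthy nodes to their right. Circles are treatment naïve tumours, triangles relapsed tumours and squares healthy nodes. The 7 high tumours lie at 11.03 or above and the 7 low tumours at 10.36 or below.

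The labels that the index did not use were compared between the groups. RNA integrity number (RIN) was 9.81 ± 0.15 (SD, n = 7) in the high and 9.61 ± 0.31 (SD, n = 7) in the low group (exact permutation test, two-sided p = 0.196). Age was 7.44 ± 2.8 and 8.39 ± 2.33 years (SD, n = 7 each, exact permutation test, two-sided p = 0.516). Relapsed tumours were 1 of 7 against 3 of 7 (Fisher's exact test, two-sided p = 0.559), and female dogs 4 of 7 against 1 of 7 (Fisher's exact test, two-sided p = 0.266). The day of the array was known for 11 of the 14 arrays. Day 1 held 2 high and 3 low arrays, day 2 held 2 of each, and day 3 held 2 high arrays and 0 low arrays (Fisher's exact test, two-sided p = 0.567). After adjustment over these 5 tests each p was 0.567, although groups of 7 leave room for differences that these tests would miss.

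Genes of mitosis were higher in the high group, and few genes were lower. Of 43025 probesets without those of the index genes, limma called 300 higher (0.697%) and 51 lower (0.119%) with the adjusted p below 0.05, and 123 of the higher (0.286% of those tested) and 6 of the lower (0.0139%) also differed by more than 2-fold. Read as 15110 genes, each from its probeset of highest mean, 142 were higher (0.94%) and 12 lower (0.0794%). Among all genes, the groups did not overlap for 145 that were higher (0.96%) and 18 that were lower (0.119%) in the high group, and 102 and 6 of these were also called. The 142 genes had differences from 0.38 to 1.69 with a median of 0.91, whereas the median over all genes was 0.01. Of the 142, 71 belonged to the gene lists described here and 71 to none of them. Genes that share the division cycle with the index genes are close to the rule that chose the groups. Their differences therefore describe what the index separates and are no independent evidence for it.

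Mitosis was the list with the most calls. Of 65 measured genes, 39 rose (60%) and 0 fell, against 0.94% of all genes called higher, and the median difference was 0.98. The differences ranged from −0.04 for KIF20B, a kinesin of cytokinesis named as the lowest value, to 1.69 for DLGAP5, and 64 of 65 were above 0. The mean level of the list was 9.83 to 10.12 in the high tumours, 9.24 to 9.68 in the middle, 8.51 to 9.41 in the low tumours and 7.48 to 9.16 in healthy nodes. High, middle and low tumours followed each other, with overlap of the middle and low ranges only. With each array left out in turn, 32 to 43 genes of the list were called.

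Among the spindle genes, DLGAP5 had the largest rise of all genes called higher. DLGAP5, a microtubule-binding protein of the spindle, was at 11.17, 11.47 and 11.62 (lowest, median and highest) in the high group and at 8.52, 9.73 and 10.41 in the low group, without overlap. It rose by 1.69 ± 0.23 (SE, limma adjusted p = 0.0034), or 3.23-fold. Of its other probesets, 1 rose by 1.76 and 1 that was dim had a difference of 0.67 (adjusted p = 0.094).

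TPX2, which activates Aurora A on the spindle, was at 9.98, 10.48 and 10.86 in the high group against 7.99, 9.15 and 9.76, and rose by 1.39 ± 0.24 (SE, limma adjusted p = 0.012). Aurora A itself, AURKA, rose by 1.18 ± 0.18 (SE, limma adjusted p = 0.0053) from a median of 9.70 to 10.84. ASPM, a protein of spindle poles, rose by 1.34 ± 0.15 (SE, limma adjusted p = 0.0028). In all 3 genes the lowest high tumour lay above the highest low tumour.

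Kinetochore genes moved in the same direction. CENPA, the histone variant that marks the centromere, was at 9.49, 9.61 and 9.80 in the high group and at 6.23, 8.36 and 8.81 in the low group, and rose by 1.63 ± 0.33 (SE, limma adjusted p = 0.032). The high tumours lay close together and the low tumours spread over more than 2 units. Its call was lost without any 1 of samples 1, 4, 8, 9, 10, 12, 16 and 21, with adjusted p up to 0.0775, while its difference stayed between 1.33 and 1.76. NUF2, of the complex that ties kinetochores to microtubules, was at 11.32, 11.81 and 12.08 against 9.81, 10.50 and 10.92, and rose by 1.38 ± 0.19 (SE, limma adjusted p = 0.0034). ERCC6L, a DNA translocase of the inner centromere, rose by 1.41 ± 0.22 (SE, limma adjusted p = 0.0072).

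The kinases and inhibitors that time mitosis showed the same order. PLK1, a kinase that acts from mitotic entry to cytokinesis, was at 8.54, 9.16 and 9.31 in the high group and at 6.80, 7.51 and 7.96 in the low group. It rose by 1.45 ± 0.18 (SE, limma adjusted p = 0.0028), and the groups did not overlap. PTTG1, the securin that holds back the separation of chromatids, was at 11.41, 11.73 and 12.54 against 9.77, 10.36 and 10.80, and rose by 1.47 ± 0.18 (SE, limma adjusted p = 0.0028). ECT2, the exchange factor that starts cytokinesis, rose by 1.35 ± 0.17 (SE, limma adjusted p = 0.0028). BIRC5, the survivin subunit of the chromosomal passenger complex, rose by 1.37 ± 0.23 (SE, limma adjusted p = 0.011). Its partner kinase AURKB rose by 0.81 ± 0.15 (SE, limma adjusted p = 0.021), and AURKB was not called without sample 4, 8 or 12 (adjusted p up to 0.0566).

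Of the 10 genes of largest rise without overlap, 3 have roles that are less known or a sequence that leaves doubt. CDCA3, which is linked to entry into mitosis, was at 10.31, 10.88 and 11.40 against 8.76, 9.57 and 9.93, and rose by 1.58 ± 0.21 (SE, limma adjusted p = 0.0031). C4H5orf34 rose by 1.47 ± 0.28 (SE, limma adjusted p = 0.024), and was not called without sample 4, 9, 12 or 16 (adjusted p up to 0.0647). LOC485338 rose by 1.51 ± 0.19 (SE, limma adjusted p = 0.0028). It is a pseudogene in RefSeq, so that its probesets may have measured a gene of like sequence. Of the 71 called genes outside the lists, CKAP2L of the spindle rose by 1.28, UBE2S, which acts with the anaphase-promoting complex, by 1.36 and the kinesin KIFC1 by 1.22. These 3 genes were chosen after their values were seen, and KIFC1 was called on 1 of its 3 probesets.

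Of 30 cyclins, cyclin-dependent kinases, E2F proteins and related genes, 7 rose and 0 fell, with a median difference of 0.46. CCNA2, the cyclin of S phase and G2, was at 10.36, 10.62 and 11.13 in the high group and at 8.60, 9.36 and 10.09 in the low group, and rose by 1.34 ± 0.20 (SE, limma adjusted p = 0.0048). CCNB3, a B-type cyclin, rose by 1.28 ± 0.15 (SE, limma adjusted p = 0.0028). CDK4, the kinase of the G1 cyclins, was at 12.50, 12.60 and 12.72 against 12.03, 12.27 and 12.39. Its rise was small, 0.38 ± 0.08 (SE, limma adjusted p = 0.025), and its call was lost without any 1 of samples 1, 4, 8, 9, 12, 16 and 20 (adjusted p up to 0.0688). A second, dimmer probeset of CDK4 differed by 0.46 and was not called (limma adjusted p = 0.105). From 3 (without sample 1, 8, 9 or 16) to 6 genes of the list were called with 1 array left out.

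Of the transcription factors of the cycle named here, FOXM1 was called and E2F1 and MYBL2 were not, and their differences were not tested against each other. FOXM1, which turns on genes of G2 and M, was at 10.25, 10.93 and 11.42 in the high group and at 9.12, 9.52 and 10.16 in the low group, and rose by 1.34 ± 0.19 (SE, limma adjusted p = 0.0035). The groups did not overlap. E2F1, which acts at the entry into S phase, was at 6.22, 6.49 and 6.83 against 5.81, 6.04 and 6.75, a difference of 0.31 (95% interval −0.02 to 0.65, limma adjusted p = 0.41). Its only probeset was dim, with all these values below the array medians of 6.85 to 6.97, and could have missed a difference. MYBL2 was at 9.97, 10.63 and 11.28 against 9.54, 10.07 and 12.14, a difference of 0.33 (95% interval −0.41 to 1.06, limma adjusted p = 0.76). Its highest value of all 14 tumours was in sample 18, which had the lowest index. Without sample 18 the difference of MYBL2 was 0.63 (limma adjusted p = 0.205), and among treatment naïve tumours it was 0.81 ± 0.24 (SE, limma adjusted p = 0.471).

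**Figure D2:**
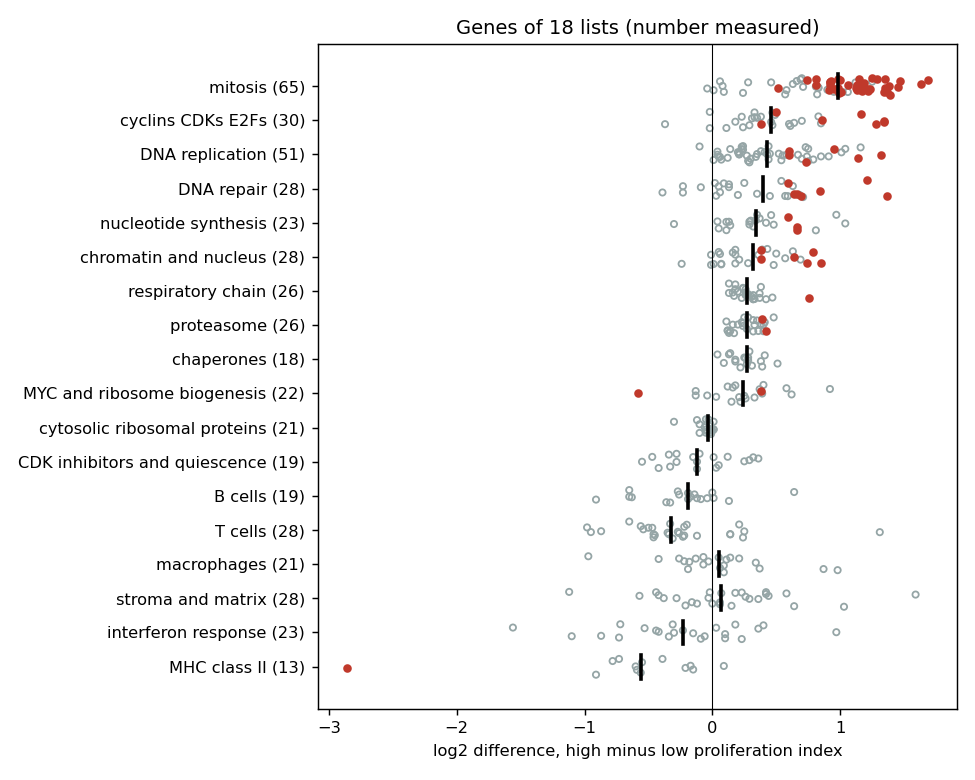
Log2 difference between the high and low groups (horizontal axis) for the measured genes of 18 lists, with 1 point per gene, filled where limma called it at an adjusted p under 0.05, and a bar at the list's median. The median is 0.98 for mitosis, 0.43 for DNA replication, −0.32 for T cells and −0.56 for MHC class II, whose filled point at −2.86 is DLA-DOB.

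DNA replication genes had smaller differences than those of mitosis. Of 51 measured, 6 rose (11.8%) and 0 fell, with a median difference of 0.43, and 31 had an unadjusted p under 0.05. RFC3, of the clamp loader, was at 11.07, 11.39 and 11.59 in the high group and at 10.00, 10.51 and 10.86 in the low group, and rose by 0.95 ± 0.13 (SE, limma adjusted p = 0.0031). MCM10, which helps to start forks, rose by 1.14 ± 0.20 (SE, limma adjusted p = 0.013), and POLD3, a polymerase δ subunit, by 0.60 ± 0.11 (SE, limma adjusted p = 0.019). POLA1, which makes the first DNA stretch, rose by 1.32 ± 0.27 (SE, limma adjusted p = 0.039), with overlap of 7.69 to 9.65 and 7.06 to 7.99. Its call held in 4 of 14 fits with 1 array left out, and was lost without any 1 of samples 4, 8, 9, 10, 12, 16, 18, 20, 21 and 23 (adjusted p up to 0.0923). A second, dimmer probeset of POLA1 differed by 0.19 (limma adjusted p = 0.572), so that the call depended on the probeset. The list had 2 calls without sample 12 and 12 without sample 2.

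Common markers of S phase did not pass the test on the probeset read here. PCNA, the sliding clamp, was at 12.93, 13.03 and 13.09 against 12.50, 12.66 and 12.97, a difference of 0.28 (95% interval 0.10 to 0.46, limma adjusted p = 0.14). A second, dimmer probeset of PCNA rose by 0.61 (limma adjusted p = 0.022), so that the call depended on the probeset. MCM2, of the replicative helicase, was at 8.26, 8.38 and 8.63 against 6.46, 7.96 and 8.25, without overlap, a difference of 0.70 (95% interval 0.21 to 1.18, limma adjusted p = 0.18). The low value of 6.46 was sample 18.

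Of 23 genes of nucleotide synthesis, 3 rose and 0 fell. NME1, a nucleoside diphosphate kinase, was at 12.42, 12.63 and 12.71 in the high group and at 11.55, 11.95 and 12.28 in the low group, and rose by 0.66 ± 0.11 (SE, limma adjusted p = 0.0086). DTYMK, thymidylate kinase, rose by 0.59 ± 0.11 (SE, limma adjusted p = 0.015). RRM1, the large subunit of ribonucleotide reductase, rose by 0.66 ± 0.12 (SE, limma adjusted p = 0.021), and its call was lost without sample 4, 8, 9 or 12 (adjusted p up to 0.0572). The small subunit RRM2 was at 11.49, 12.30 and 12.58 against 10.07, 11.24 and 11.87, a larger difference of 0.97 that did not pass (95% interval 0.43 to 1.52, limma adjusted p = 0.095). TYMS, thymidylate synthase, differed by 0.34 (95% interval 0.08 to 0.59, limma adjusted p = 0.21).

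Of 28 measured genes of DNA repair, 7 rose and 0 fell, with a median of 0.40. FANCM, a translocase that remodels stalled forks, was at 9.30, 9.59 and 10.43 in the high group and at 7.69, 8.33 and 8.85 in the low group, and rose by 1.37 ± 0.19 (SE, limma adjusted p = 0.0038). EXO1, an exonuclease of mismatch repair and recombination, rose by 1.21 ± 0.20 (SE, limma adjusted p = 0.011), and FANCD2 by 0.84 ± 0.14 (SE, limma adjusted p = 0.012). The list had 3 calls without sample 9 and 4 without sample 8 or 21.

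Of 28 genes of chromatin and the nucleus, 6 rose and 0 fell, with a median of 0.32. KPNA2, an importin, was at 13.33, 13.52 and 13.79 in the high group and at 12.22, 12.90 and 13.06 in the low group, and rose by 0.79 ± 0.14 (SE, limma adjusted p = 0.013). HMGB2 and the histone variant H2AZ1 rose by 0.38 each (SE 0.06 and 0.07, limma adjusted p = 0.011 and 0.016), at levels of 13 and above in all high tumours. SUV39H1, a histone methyltransferase, rose by 0.85 ± 0.16 (SE, limma adjusted p = 0.025), and its call held in 4 of 14 fits with 1 array left out (adjusted p up to 0.0669), losing it without any 1 of samples 1, 4, 6, 8, 9, 12, 16, 18, 21 and 23. Of its 3 probesets 1 was called, and the others, which were dimmer, differed by −0.13 and 0.31 (limma adjusted p = 0.822 and 0.267). The list had 3 calls without any 1 of samples 1, 4, 8, 9, 12, 18, 21 and 23.

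All 26 measured genes of the respiratory chain were higher on average in the high group, by 0.13 to 0.76 with a median of 0.27. Of these 1 was called and 22 had an unadjusted p under 0.05, where 8.68% of all genes were higher at that level. The called gene was CYC1, cytochrome c1 of complex III, which was at 10.86, 11.34 and 11.87 against 10.18, 10.66 and 10.82 and rose by 0.76 ± 0.14 (SE, limma adjusted p = 0.02). The mean level of the list was 12.62 to 12.89 in the high group and 12.29 to 12.60 in the low group, without overlap.

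The proteasome list was similar, with 26 of 26 differences above 0 and a median of 0.27. PSMA6, of the core, rose by 0.42 ± 0.07 (SE, limma adjusted p = 0.012), and PSMD14, the deubiquitinase of the lid, by 0.39 ± 0.08 (SE, limma adjusted p = 0.041). PSMD14 was called in 2 of 14 fits with 1 array left out, those without samples 2 and 15, and its adjusted p reached 0.097. A second, dimmer probeset of PSMD14 differed by 0.52 and was not called (limma adjusted p = 0.052). Of 18 chaperones 0 were called by limma or by the methods' analysis of variance, 11 had an unadjusted p under 0.05, and 18 were higher on average with a median of 0.27. Glycolysis had 14 differences above 0 and 6 below, from −0.36 to 0.54 with a median of 0.15, and 0 of 20 genes were called by either test with 5 higher at an unadjusted p under 0.05.

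MYC, a transcription factor of cell growth, did not pass the test. It was at 10.33, 10.74 and 12.38 in the high group and at 10.70, 11.34 and 12.04 in the low group, a difference of −0.13 (95% interval −0.86 to 0.60, limma adjusted p = 0.92). The groups overlapped almost fully, and this interval spans a change of sign. Of 22 genes of MYC and ribosome biogenesis, CDK4 (also counted among the cyclins) rose and 1 fell, with a median of 0.24. Of the differences, 18 were above 0, and 10 genes were higher at an unadjusted p under 0.05. The 21 ribosomal protein genes of the cytosol had a median of −0.03, with 0 called by either test and 0 at an unadjusted p under 0.05.

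The gene that fell in that list was MXI1, which competes with MYC for its partner MAX. MXI1 was at 7.26, 7.51 and 7.68 in the high group and at 7.80, 8.09 and 8.25 in the low group. It fell by 0.58 (SE 0.09, limma adjusted p = 0.01) without overlap, and it was called in 14 of 14 fits with 1 array left out. With the index as a continuous measure over all 23 tumours MXI1 was not called (limma adjusted p = 0.108). Middle tumours ranged from 6.33 to 8.61 and healthy nodes from 6.35 to 9.30, beyond both end groups. Its other 2 probesets had differences of −0.70 and −0.27 and were not called (adjusted p = 0.113 and 0.437).

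Of the 12 genes called lower, 6 did not overlap between the groups. ZC2HC1A, a zinc finger gene, was at 7.36, 8.00 and 8.44 in the high group and at 8.59, 8.89 and 9.56 in the low group, and fell by 1.04 (SE 0.19, limma adjusted p = 0.017). KDM5B, a demethylase of histone H3 lysine residues, was at 10.41, 10.73 and 11.04 against 11.08, 11.24 and 11.46, and fell by 0.53 (SE 0.10, limma adjusted p = 0.015). ZC2HC1A and KDM5B were called in 14 of 14 fits with 1 array left out. With the index as a continuous measure over all 23 tumours, ZC2HC1A was called and KDM5B was not (limma adjusted p = 0.00947 and 0.0824). Their other probesets were not called. These differed by −0.64 and −0.16 for ZC2HC1A (limma adjusted p = 0.153 and 0.68) and by −0.4 for KDM5B (limma adjusted p = 0.062). Within the 9 middle tumours the correlation with the index was −0.32 for ZC2HC1A and 0.69 for KDM5B, the latter against the direction of its fall.

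FCER2, the low-affinity IgE receptor CD23 of mature B cells, was at 5.31, 5.67 and 6.04 in the high group and at 6.05, 6.44 and 7.08 in the low group. It fell by 0.83 (SE 0.18, limma adjusted p = 0.045), with groups that only just did not overlap, and was called in 4 of 14 fits with 1 array left out, those without samples 6, 15, 21 and 23 (adjusted p up to 0.102). The middle tumours did not lie between the groups, with a mean of 6.65 and a highest value of 8.35 against a low-group mean of 6.50. With the continuous index FCER2 was not called (limma adjusted p = 0.189). Its mean level of 6.35 was below the array medians of 6.85 to 6.97. ZFP62, a zinc finger gene, fell by 0.73 (SE 0.15, limma adjusted p = 0.04) and was called in 4 of the 14, those without samples 6, 8, 15 and 20 (up to 0.0833). ZBTB4, a repressor that binds methylated DNA, fell by 0.47 (SE 0.09, limma adjusted p = 0.032) and lost its call without any 1 of samples 4, 8, 12, 18, 21 and 23 (up to 0.078). Of its 5 probesets 1 was called, and the others differed by −0.66, −0.06, −0.03 and 0.03. The other 5 genes called lower besides DLA-DOB, named after their values were seen, were BBS2, CAST, KIAA1109, PCMTD2 and ZCWPW1, with differences from −0.87 to −0.56 and overlapping groups. PCMTD2 was called on 1 of its 3 probesets, and the others differed by −0.1 and −0.29. CAST and KIAA1109 were each called on 1 of 4 probesets. The others differed by −0.61, −0.61 and −0.22 for CAST and by −0.71, −0.6 and −0.5 for KIAA1109. BBS2 was called in all 14 fits. CAST was called in those without samples 2 and 15, KIAA1109 in those without samples 1, 6 and 15, PCMTD2 in those without samples 2, 10 and 15, and ZCWPW1 in those without samples 6, 16, 18 and 20, with adjusted p up to 0.102 in the others.

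**Figure D3:**
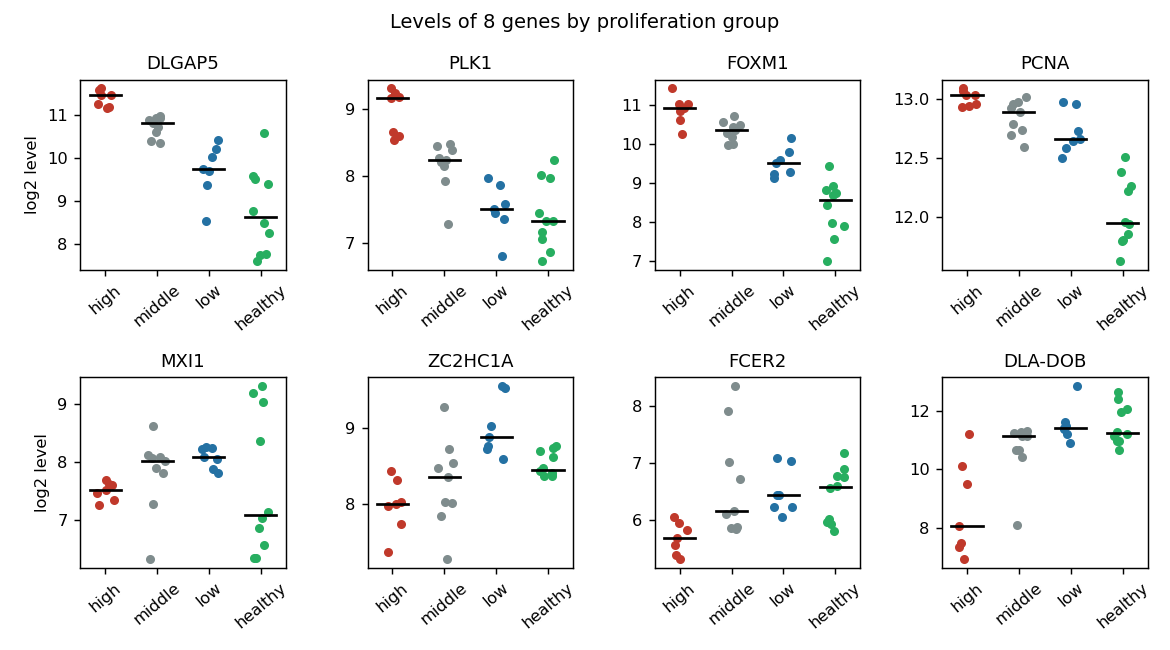
Log2 levels of 8 genes (vertical axes, each with its own range) in the 7 high, 9 middle and 7 low tumours and the 10 healthy nodes, with 1 point per array and a bar at the group median. DLGAP5, PLK1 and FOXM1 lie higher in the high than in the low tumours without overlap, MXI1, ZC2HC1A and FCER2 lower without overlap, PCNA and DLA-DOB with overlap.

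MHC class II genes, which present antigen on B cells, macrophages and dendritic cells, included the largest fall among the called genes. DLA-DOB, the β chain of the DO protein that holds back peptide loading in B cells, was at 6.96, 8.09 and 11.19 in the high group and at 10.89, 11.41 and 12.83 in the low group. It fell by 2.86 (SE 0.60, limma adjusted p = 0.039), or 7.28-fold. Sample 15, at 11.19, was the 1 high tumour within the range of the low group, and samples 1, 4 and 8 were the lowest at 6.96, 7.35 and 7.49. Of the other tumours and the healthy nodes, the middle tumour sample 5 was at 8.12, and the others lay from 10.41 to 12.63. The call was held without sample 2, 15 or 21 and lost without each of the other 11 arrays, where the adjusted p reached 0.0923 and the difference ranged from −3.00 to −2.58. Without sample 15 the difference was −3.28 (limma adjusted p = 0.00922).

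The rest of the list was lower on average without passing the test. Over all 13 genes of the list, with DLA-DOB among them, 12 had a difference below 0, with a median of −0.56. Of these 13, 9 were lower at an unadjusted p under 0.05, where 5.51% of all genes were lower at that level. The methods' analysis of variance called 0 of them, DLA-DOB included. DLA-DOA, the α chain of DO, was at 11.34, 11.91 and 12.66 in the high group and at 12.61, 12.75 and 13.37 in the low group (difference −0.78, 95% interval −1.21 to −0.35, limma adjusted p = 0.093). DLA-DRA, the α chain of DR, was at 12.78, 13.71 and 14.30 against 14.22, 14.34 and 14.68 (difference −0.60, 95% interval −1.01 to −0.20, limma adjusted p = 0.16). CIITA, the coactivator of class II transcription and also counted among the B-cell genes, was at 6.82, 7.68 and 8.55 against 7.93, 8.27 and 9.88 (difference −0.91, 95% interval −1.62 to −0.20, limma adjusted p = 0.23), and CD74, the invariant chain, differed by −0.17. These 4 genes were chosen after their values were seen.

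The mean level of the class II list was 11.17 to 12.40 in the high tumours and 12.36 to 13.01 in the low tumours, which overlapped at their edges. Of the low tumours, 6 of 7 lay above every high tumour. Lists of the cells that carry class II are given beside it. Macrophage genes were at 9.15 to 10.68 against 9.44 to 11, dendritic cell genes at 8.61 to 8.97 against 8.19 to 9.09, and B-cell genes at 10.57 to 10.92 against 10.77 to 11.30. The number of low tumours above every high tumour was 2, 2 and 5 in these lists. Their part in the class II result was not tested.

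Markers of B cells were lower on average in the high group without passing the test. Of 19 B-cell genes 16 had a difference below 0 (range −0.91 to 0.64), 0 were called by either test, 1 was higher and 3 were lower at an unadjusted p under 0.05, and the median was −0.19. EBF1, a transcription factor of B-cell identity named after its values were seen, was at 10.79, 11.42 and 11.96 against 11.71, 11.90 and 12.76 (difference −0.65, 95% interval −1.05 to −0.26, limma adjusted p = 0.12). The B-cell genes PAX5 and CD79A, also outside the rule for named genes, differed by 0.01 and −0.0 (limma adjusted p = 0.98 and 0.99). All 5 probesets of PAX5 had mean levels of 6.02 or less, below the array medians of 6.85 to 6.97. A difference in PAX5 could therefore have been missed. MS4A1, the surface antigen CD20, was at 12.91, 12.95 and 13.58 in the high group and at 12.77, 13.59 and 13.86 in the low group (difference −0.27, 95% interval −0.65 to 0.11, limma adjusted p = 0.57). BCL6, a repressor of germinal centre B cells, differed by 0.05 (95% interval −0.86 to 0.97, limma adjusted p = 0.98). PRDM1, which drives plasma cells, was at 6.14, 6.40 and 10.09 against 6.11, 6.85 and 7.45 (difference 0.24, limma adjusted p = 0.90), and its value of 10.09 belonged to sample 21.

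Lists of other cells of the node had no call either. Of 28 T-cell genes 0 were called by either test and 1 was lower at an unadjusted p under 0.05. The median was −0.32, and mean levels of 7.03 to 8.18 in the high and 6.69 to 8.81 in the low group overlapped. CD3E, of the T-cell receptor complex, differed by −0.12 (95% interval −1.37 to 1.13). The 21 macrophage genes had a median of 0.05, with 0 called by either test and 0 at an unadjusted p under 0.05. CD68 differed by 0.06 (95% interval −0.76 to 0.88), and CD163 by 0.87 (95% interval −0.54 to 2.27, limma adjusted p = 0.64). Stroma and matrix genes, 28 of them, had a median of 0.07, with 0 called by either test and 1 lower at an unadjusted p under 0.05, and COL1A1 differed by 0.64 (95% interval −0.28 to 1.56). These intervals are wide, so that differences in these cells of up to 2-fold were often not detectable with 7 arrays in a group.

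Genes that hold cells out of the cycle were not called on the probesets read here. Of 19 CDK inhibitors and quiescence genes 0 were called by either test, with 3 lower at an unadjusted p under 0.05 and a median of −0.12. CDKN1A, the inhibitor p21, was at 9.60, 10.51 and 11.78 against 9.25, 10.97 and 12.11 (difference −0.10, 95% interval −1.03 to 0.83), and CDKN1B, the inhibitor p27, differed by −0.15 (95% interval −0.77 to 0.46). RBL2, a pocket protein of resting cells named after its values were seen, was at 11.63, 12.17 and 12.22 against 12.26, 12.60 and 13.09. It did not overlap between the groups and missed the threshold on this probeset (difference −0.55, 95% interval −0.83 to −0.28, limma adjusted p = 0.061). Of its other 3 probesets, which were dimmer, 2 fell by 0.88 and 0.93 (limma adjusted p = 0.013 and 0.036) and the third differed by −0.61 (adjusted p = 0.096), so that the call depended on the probeset. Interferon response genes, 23 of them, had a median of −0.23, with 0 called by either test and 1 lower at an unadjusted p under 0.05. The other lists without a call, from germinal centre, plasma, NK, dendritic, endothelial, follicular dendritic and red blood cells to NF-κB, immediate early, MHC class I, apoptosis and hypoxia genes, had medians from −0.32 (neutrophils) to 0.15 (activated B and plasma cells). In all, 22 of the 32 lists had no call.

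The 9 middle tumours, which were in neither group, gave values that the calls did not use, although middle sample 11 and low sample 12 were of the same dog. For all 142 genes called higher, the mean of the middle tumours lay between the means of the end groups. It did so for 11 of the 12 called lower, FCER2 being the exception, and for 45.9% of all genes. The same index placed these tumours in the middle, so that such a mean was likely beforehand for genes with a large difference. The share over all genes, whose median difference was 0.01, is no like comparison, and these counts are no independent evidence. Within the middle tumours, whose index spans less than 0.5 units, 103 of the 142 genes (72.5%) had a positive correlation with the index, against 43.5% of all genes. The median Pearson r was 0.29 over the called genes and −0.08 over all genes (n = 9 arrays). The 12 genes called lower had a median r of −0.01, and 6 of them were negative. The mean of the mitosis list followed the index within the middle tumours (r = 0.80), and r was 0.22 for DNA replication and −0.02 for nucleotide synthesis. The last 2 values rested on sample 5, which had the highest index of the middle tumours and a B-cell mean of 8.74, the lowest of all arrays. Without it, a choice made after seeing the data, r was 0.88 and 0.81, and 0.89 for mitosis, and 120 of the 142 genes (84.5%) had a positive r, against 44% of all genes. All points share the array's normalisation, and these correlations are descriptions.

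**Figure D4:**
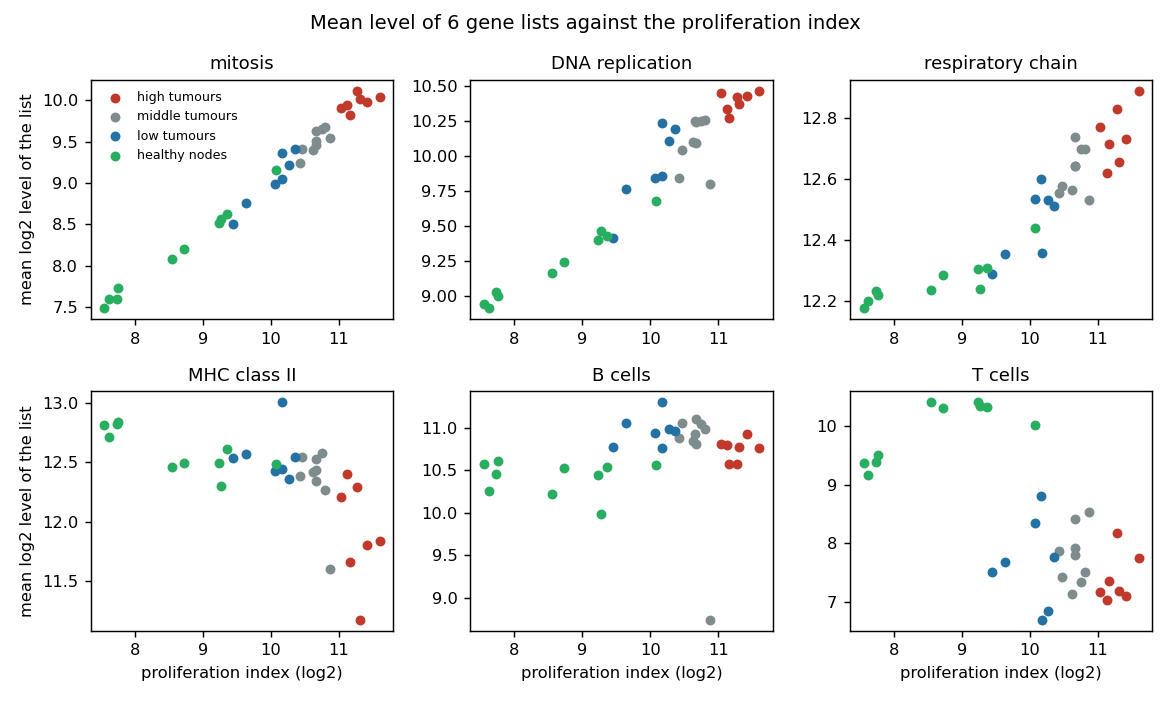
Mean log2 level of 6 gene lists (vertical axes, each with its own range) against the proliferation index (horizontal axis, log2) for each of the 33 arrays, coloured by group. Mitosis rises along the whole range of the index, respiratory chain genes lie at 12.62 or above in the high tumours and at 12.60 or below in the low tumours, and the class II list falls to 11.17 in a high tumour. T-cell means are at 9.16 or above in healthy nodes and at 8.81 or below in the end groups.

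Healthy nodes continued the order for DNA replication and the respiratory chain, as for mitosis, with ranges that overlapped those of the low tumours. The mean levels of healthy nodes were 8.91 to 9.68 for DNA replication and 12.18 to 12.44 for the respiratory chain, with the low tumours at 9.42 to 10.23 and 12.29 to 12.60. The B-cell list did not follow this order, with healthy nodes at 9.98 to 10.61 and the low tumours at 10.77 to 11.3. For class II the healthy nodes, at 12.30 to 12.84, lay in the range of the low tumours. The RIN of healthy nodes was 5.8 to 9.4, against 9.1 to 10 in the end groups, and 4 of the 10 arrays were of 1 dog, so that these levels are given without a test.

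The number of calls changed when the array day was made a block. With the day as a block in the 11 arrays of known day, limma called 0 probesets in each direction (lowest adjusted p = 0.122), with 2204 higher and 1919 lower at an unadjusted p under 0.05. The same 11 arrays without the block gave 126 higher and 15 lower, and the methods' analysis of variance, run on all 14 arrays without a block, gave 242 and 25. Day 3 held 2 high and 0 low arrays, so that with the block its arrays do not enter the difference. The size changed little for the mitosis list and more for some genes. POLA1 differed by 0.89 with the block and by 1.32 in all 14 arrays, and ZC2HC1A by −1.38 and −1.04. The median of the mitosis list was 1.03 with the block and 1.02 without it, DLGAP5 differed by 1.82 ± 0.31 (SE, limma adjusted p = 0.129) and DLA-DOB by −3.00 ± 0.74 (SE, limma adjusted p = 0.273). Within day 1 the mitosis list had a median of 0.87 (2 high and 3 low arrays) and within day 2 of 1.25 (2 and 2), and the class II list of −0.48 and −0.92. All 142 genes called higher and all 12 called lower kept their sign within both days, in arrays that were also part of the call.

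The number of calls also changed with relapse status and RIN in the fit. With relapse status as a covariate in all 14 arrays 174 probesets were higher and 26 lower. Among the 10 treatment naïve end arrays 29 probesets were higher and 1 lower, and DLGAP5 differed by 1.28 ± 0.15 (SE, limma adjusted p = 0.0159), PLK1 by 1.18 ± 0.19 (SE, limma adjusted p = 0.0636) and DLA-DOB by −2.75 ± 0.79 (SE, limma adjusted p = 0.439). With RIN as a covariate 162 were higher and 59 lower, and 32 genes of mitosis but 2 of DNA replication were called. DLA-DOB then missed the threshold at −3.12 ± 0.65 (SE, limma adjusted p = 0.0544). With the index as a continuous measure over all 23 tumours, 1234 probesets were higher and 370 lower, and 53 genes of mitosis and 27 of DNA replication were called.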

How the data were processed

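RNA was hybridised to Affymetrix Canine Genome 2.0 arrays, and the authors deposited log2 values of 43035 probesets, made with RMA in their Expression Console software, whose version is not stated here. RMA gives arrays a common distribution and hides any shift in a cell's total RNA. Of the probesets, 29264 had 1 gene symbol, 439 had several and 13332 were unnamed here. Each gene took its brightest probeset, by the mean over 33 arrays.

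The 7 high and 7 low arrays were fitted by limma 3.58.1 (R 4.3.3), with Benjamini-Hochberg adjustment over all probesets and without covariates. Labels were compared by exact permutation (3432 splits) or Fisher's exact test in Python 3.11.15 with numpy 2.4.6, scipy 1.17.1 and pandas 2.3.3, and plots were drawn with matplotlib 3.10.9. The limma fit was tested on simulated data with independent probesets and with groups set beforehand. Such data cannot show how the choice of groups by an index from the same arrays affects the calls. The members and the 32 gene lists were chosen with earlier results of these data known. Named genes are the 10 largest rises and falls without overlap (6 falls qualified), up to 4 called genes per list and direction, and a list of 26 genes, of which 23 were measured. The values of 1 gene that this rule names are not reported here. The methods' analysis of variance is the one-way test of the study, without limma's shared spread. Array days came from array names in a supplement read from page images, were known for 18 tumours, and are no extraction batch. RNA was extracted in 2 batches that could not be assigned here. Each tumour array is a biopsy, and precision is limited by the number of arrays. The number of columns of sample values left unused was 0. Promoter sequences were not analysed here.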

Additional observations from a re-analysis of the deposited data

Results flagged for a closer look

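Within each group of 7, values were compared with the Dixon critical value of 0.568 for the gap of an end value over the range. Of 144 sets of values (the index, named genes and list means) 16 passed, and chance alone gives about 1 in 20.

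Of the 7 high tumours, sample 21 stood apart in 5 sets: PRDM1 at 10.09, CD8A at 7.69, and mean levels of 8.09 for germinal centre genes, 11.20 for activated B and plasma cell genes and 9.87 for NK and cytotoxic genes. The interferon response mean of sample 15 was 7.56, with the next high tumour at 9.72.

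Of the low tumours, sample 18 had the highest MYBL2, 12.14, and immediate early mean, 9.79, and the lowest MCM2, 6.46, nucleotide synthesis mean, 9.75, and ribosomal protein mean, 14. Sample 20 had the highest ZFP62, 9.03, DLA-DOB, 12.83, and class II mean, 13.01, and the lowest BCL6, 8.44. TYMS was 12.94 in sample 2.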

How the results depend on the processing

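The groups kept all 14 arrays when the index was read from the mean of a gene's probesets. Counts of probesets called moved most with the samples and the covariates, giving higher and lower 162 and 59 with RIN, 174 and 26 with relapse status, 0 and 0 with the day block, 126 and 15 in the same arrays without it (added after seeing the data), 29 and 1 in naïve tumours, 1234 and 370 with the continuous index, 1387 and 414 with the dog as a block besides, and 541 and 140 with the spread from 23 arrays. The lower count was 25 by analysis of variance, 90 with cyclic loess and 113 with array weights. With a fold over 2 as well, higher and lower were 0 and 0 with the day block and 21 and 1 in naïve tumours, and the lower count was 20 with RIN, 20 with the spread from 23 arrays, 3 by analysis of variance, 11 above the 25th percentile and 16 with array weights. With RIN, calls were 4 for cyclins, 2 for DNA replication, 3 for DNA repair and 2 for chromatin. With the continuous index they were 11 for cyclins, 27 for DNA replication, 6 for nucleotide synthesis and 13 for chromatin. With each array left out, 173 (without sample 9) to 422 (sample 2) probesets were higher and 17 (sample 9) to 137 (sample 15) lower, or 87 to 155 and 3 to 34 with the fold. The lists then had 32 to 43 calls for mitosis, 3 to 6 for cyclins, 2 to 12 for DNA replication, 2 to 4 for nucleotide synthesis, 3 to 7 for DNA repair and 3 to 7 for chromatin. The cause was not tested.

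No named gene that was called changed sign. Of 49 called, 49 lost the call with the day block, 41 in naïve tumours, 18 with RIN, 16 with relapse status and 11 by analysis of variance. With the continuous index 6 lost the call, and these were NME1, MXI1, KDM5B, FCER2, CAST and ZCWPW1. With every array left out in turn, 31 were called each time. Signs of uncalled genes turned with the day block for MYBL2 (−0.17), MYC (0.05), BCL6 (−0.09), PRDM1 (−0.42), CD8A (−0.13) and CD68 (−0.61), and in the same arrays without it for CD3E (0.25) and CD68 (−0.31). In naïve tumours they turned for MYC (0.02), CDKN1A (0.39), CDKN1B (0.26) and CD3E (0.21), with relapse status for CDKN1A (0.16), CDKN1B (0.02) and CD3E (0.09), and with RIN for CDKN1A (0.34) and CD3E (0.11). With the continuous index they turned for MYBL2 (−0.07), BCL6 (−0.02) and CD68 (−0.01), with the dog as a block for MYBL2 (−0.06), BCL6 (−0.09) and CD68 (−0.01), with array weights for BCL6 (−0.06) and CD8A (−0.00), and with the mean of probesets for CDKN1A (0.05). No paired analysis was possible because the groups share no sample number. The fit of the end groups without sample 5 could not differ, since it is a middle tumour, its removal from the middle tumours was added after seeing the data, and the promoter motifs were not run.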
